A study of Mus musculus with 26 samples.

Results

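Non-clonal E14 cells were set against a pair of wild-type (WT) clones of the same background in the K27-K4 reChIP, a sequential ChIP in which chromatin is pulled down first for H3K27me3 and then for H3K4me3. All 36235 regions of the K27-K4 set that the authors list for E14 cells were taken, with no selection on their values here. The set was called in E14 cells, so regions enriched in the clones alone are not in it. Of these, 716 lie on chromosome 14 from 40 to 90 Mb and are given apart except in the gene lists, and 35519 lie elsewhere. The comparison used 4 of the 26 libraries of the study, which profiled bivalent chromatin in mouse embryonic stem cells by reChIP in both orientations with in-line totals (chromatin kept from the first ChIP) and IgG-IgG controls. The E14 group held biological replicate 1, sequenced in batch A, and replicate 2, sequenced in batch B. The other group held WT clone 57 and WT clone 58, each a single clonal line with 1 library, both sequenced in batch C. Both groups are labelled wild type, and all were grown on gelatin in serum with LIF. Dppa2/4 double knockout (DKO) clones 43 and 53, also of batch C, are quoted only beside the main comparison. Since no batch holds both groups, differences that come from the cells and differences that come from the batch cannot be told apart.

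Trimethylation of lysine 4 of histone H3 marks the promoters of active and poised genes, and trimethylation of lysine 27 is laid down by Polycomb repressive complex 2. In embryonic stem cells many CpG-rich promoters of developmental genes carry both marks. Such bivalent promoters are held at low expression and can be activated or silenced on differentiation.

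Depth differed between the libraries. The reads behind the values were 6741245 in E14 replicate 1, 47903462 in E14 replicate 2, 15851030 in clone 57 and 17052421 in clone 58, with medians of 23, 291, 40 and 40 reads per region. The share of reads that fell in the regions was 0.276 and 0.645 in the E14 libraries and 0.362 and 0.247 in the clones. The deposited log2 reads per kb scaled to library size (RPM per kb) had SDs across regions of 0.80 and 0.96 in E14 cells and of 1.34 and 1.09 in clones 57 and 58, so that the clones spread their signal over a wider range. Pearson's r across regions was 0.78 between the E14 replicates, 0.74 between the clones and 0.61 to 0.70 between the groups. These r values are descriptions, since the regions share libraries. The values are chromatin signal and not RNA, so that the cell type could not be checked by expression, and the promoters of the stem cell, primitive endoderm and fibroblast markers are given below as gene lists.

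Sequences of 7 loci are given as examples of the regions that differed, and they do not stand for the called regions as a set. The promoters of Klhl20, Suz12 and Rpl37a are from regions that were higher in E14 cells, Itm2b from the chromosome 14 segment and Plagl1 from a region that was lower. They run from 250 bases before to 50 bases after the RefSeq start in GRCm38.p6 (mm10), 5′ to 3′ on the strand of the gene, and lie wholly inside the regions. Each CG dinucleotide is in capitals, which reads the same on both strands. The spans are chr1:161131430-161131729 on the minus strand, chr11:79992856-79993155 on the plus strand, chr1:72711010-72711309 on the plus strand, chr14:73385240-73385539 on the minus strand and chr10:13090582-13090881 on the plus strand.
Klhl20: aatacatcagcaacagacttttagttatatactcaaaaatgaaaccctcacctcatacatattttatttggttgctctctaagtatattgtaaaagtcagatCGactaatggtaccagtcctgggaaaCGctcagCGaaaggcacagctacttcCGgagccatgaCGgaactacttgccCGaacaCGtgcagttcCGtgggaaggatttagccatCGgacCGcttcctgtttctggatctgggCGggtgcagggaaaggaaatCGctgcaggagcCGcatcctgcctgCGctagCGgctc
Suz12: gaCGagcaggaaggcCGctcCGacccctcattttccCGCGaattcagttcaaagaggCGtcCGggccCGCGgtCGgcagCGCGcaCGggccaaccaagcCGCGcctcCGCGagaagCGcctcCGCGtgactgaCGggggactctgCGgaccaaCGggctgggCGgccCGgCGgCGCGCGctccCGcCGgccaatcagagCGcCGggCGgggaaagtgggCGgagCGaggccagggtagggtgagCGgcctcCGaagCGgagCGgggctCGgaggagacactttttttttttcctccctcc
Rpl37a: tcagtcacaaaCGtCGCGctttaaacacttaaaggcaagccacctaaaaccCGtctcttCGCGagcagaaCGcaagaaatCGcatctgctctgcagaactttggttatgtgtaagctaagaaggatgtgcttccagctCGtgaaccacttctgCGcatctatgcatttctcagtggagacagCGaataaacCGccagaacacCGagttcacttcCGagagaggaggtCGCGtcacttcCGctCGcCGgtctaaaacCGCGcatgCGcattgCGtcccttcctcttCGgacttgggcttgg
Itm2b: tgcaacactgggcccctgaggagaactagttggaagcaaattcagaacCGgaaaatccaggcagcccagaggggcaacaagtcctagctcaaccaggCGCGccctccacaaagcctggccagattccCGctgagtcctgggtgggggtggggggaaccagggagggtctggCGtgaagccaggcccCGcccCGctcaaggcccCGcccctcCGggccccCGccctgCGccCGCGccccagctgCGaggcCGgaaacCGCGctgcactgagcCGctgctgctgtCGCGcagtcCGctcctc
Plagl1: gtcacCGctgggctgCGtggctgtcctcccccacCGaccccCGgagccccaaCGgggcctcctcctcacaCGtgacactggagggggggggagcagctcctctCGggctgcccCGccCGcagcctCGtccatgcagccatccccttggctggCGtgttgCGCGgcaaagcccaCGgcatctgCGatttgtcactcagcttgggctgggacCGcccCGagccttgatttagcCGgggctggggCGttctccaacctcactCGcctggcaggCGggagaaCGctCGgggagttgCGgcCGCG

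They hold 15, 41, 24, 21 and 26 CG in this order. Of 32851 RefSeq promoter sequences of 300 bases, 94.6% hold at least 1 CG and the median is 7. Promoters with at least as many CG as these make up 34.6%, 3.46%, 20%, 24.8% and 16.9% of all. A pair of regions of 300 bp that were lower in E14 cells and lie away from start sites are also shown whole. They are read from the plus strand of GRCm38.p6, at chr9:104353201-104353500 and chr6:23122351-23122650.
near Gm28548: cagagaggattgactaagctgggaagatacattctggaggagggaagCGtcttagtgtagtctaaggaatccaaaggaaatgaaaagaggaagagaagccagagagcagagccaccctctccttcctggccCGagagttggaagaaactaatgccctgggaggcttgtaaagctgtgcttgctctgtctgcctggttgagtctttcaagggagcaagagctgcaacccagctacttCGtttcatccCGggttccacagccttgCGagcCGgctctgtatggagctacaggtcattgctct
near Aass: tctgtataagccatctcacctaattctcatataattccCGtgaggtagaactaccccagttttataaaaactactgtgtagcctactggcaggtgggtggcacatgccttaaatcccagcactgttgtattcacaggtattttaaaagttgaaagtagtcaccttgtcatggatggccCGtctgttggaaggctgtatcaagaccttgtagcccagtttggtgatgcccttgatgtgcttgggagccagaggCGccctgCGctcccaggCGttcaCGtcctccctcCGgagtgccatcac

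These hold 6 and 7 CG, above the median of 5 in the 520 regions of that length, of which 94.2% hold at least 1. They do not show the low CpG content of the lower regions as a set. A start site lay within 1.5 kb of 7.81% of the lower regions, so the Plagl1 promoter is not typical of them either.

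Outside the chromosome 14 segment, promoters marked by H3K4me3 made up most of the regions called higher in E14 cells with all 4 libraries, and CpG-poor regions far from genes most of those called lower. The first of these held without E14 replicate 1, but not without any other single library or without the variance trend and robust estimation, as given below. With limma, 244 of 35519 regions were called higher in E14 cells (0.687%) and 474 were called lower (1.33%), at a log2 difference above 1 and a Benjamini-Hochberg adjusted p under 0.05 over all 36235 regions. At an unadjusted p under 0.05, 3026 were higher (8.52%) and 2565 lower (7.22%). Called differences ran from 1.23 to 5.60 and from -1.23 to -3.18, while the quartiles of all regions were at -0.46 and 0.54. Both E14 libraries lay above both clones at 25.3% of the regions and below both at 22.6%, so most regions without overlap were not called. The plot of difference against mean level shows that the lower calls sit at middle levels.
The counts rest on few libraries. With 1 library left out, the spread comes from the other group alone, and the lone library is assumed to vary like it. Without E14 replicate 2, 12 regions were higher, none of them among the 244, and 167 were lower, of which 162 were among the 474. Without E14 replicate 1 the counts were 63 and 312, without clone 57 they were 605 and 365, and without clone 58 they were 1499 and 640. Quantile normalisation, which gives the libraries the same spread, called 102 higher and 98 lower, sharing 31 and 79 regions with the counts above. The higher regions were 51.0% of the calls there and 34.0% with median centring. With 2 libraries a group, the spread of 88.8% of the regions was taken wholly from the trend over all regions. With that trend and the robust estimation dropped together, the median prior degrees of freedom, the weight of the shared spread against a region's own, fell from infinite to 7.98, and 23 were higher and 0 lower, of which 1 was among the 244, with 2715 higher and 1729 lower at an unadjusted p under 0.05. With GC content and region width corrected for, 0 were higher and 0 lower, with 2839 and 3089 at an unadjusted p under 0.05 and a smallest adjusted p of 0.263. The median prior degrees of freedom in that fit were 3.19. Values as deposited, without centring, gave 7 higher and 0 lower.

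**Figure D1:**
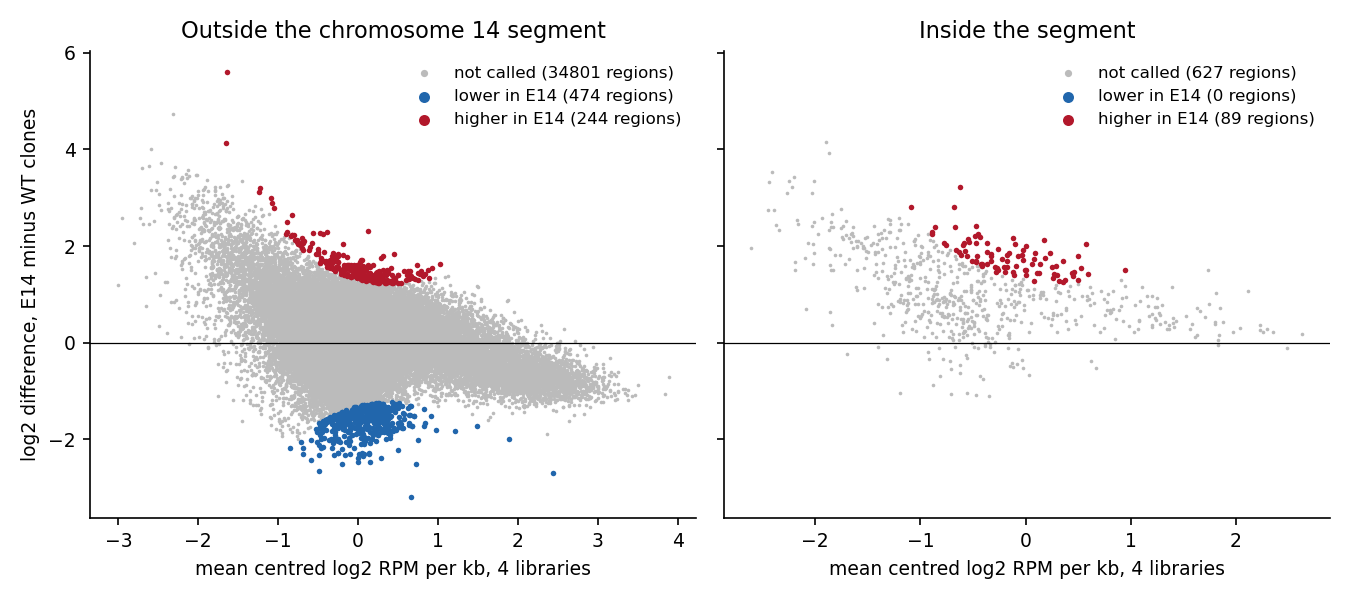
Log2 difference of E14 minus WT clones in K27-K4 (vertical axis) against the mean centred log2 RPM per kb of the 4 libraries (horizontal axis), outside the chromosome 14 segment (left) and inside it (right). Each point is a region, with 244 higher calls in red and 474 lower calls in blue on the left and 89 higher calls on the right.

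The 244 higher regions had median centred values of 0.63 and 0.90 in the E14 replicates and of -0.78 and -0.56 in clones 57 and 58. A start site lay within 1.5 kb of 218 of them (89.3%), against 41.9% of the uncalled regions. Among the regions called higher, this share was 8.33% without E14 replicate 2, 33.9% without clone 57, 38.8% without clone 58, 96.8% without E14 replicate 1 and 26.1% without the variance trend and robust estimation. The 244 regions overlapped the E14 total H3K4me3 set in 89.8% of cases and the total H3K27me3 set in 1.23%. For uncalled regions these shares were 47.5% and 16.4%. The median CpG content of the 244 was 3.64 per 100 bp and their median width 2550 bp, against 2.14 per 100 bp and 2400 bp. The K27-K4 set that the authors list for WT clones held 25 of them (10.2%), against 36.6% of uncalled and 58.2% of lower regions. The tested set was called in E14 cells, so this excess of higher regions outside the clone set cannot be read apart from that choice. The CpG content of the higher calls was 1.17 per 100 bp without E14 replicate 2 and 2.22 without either clone 57 or clone 58.

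The 474 lower regions had median centred values of -0.59 and -0.72 in E14 cells and of 0.94 and 0.84 in the clones. A promoter was within reach of 37 (7.81%), and the median distance to a start site was 28384 bp. They were narrow, with a median of 1050 bp, and CpG-poor, with 1.51 CpG per 100 bp. The total H3K27me3 set covered 37.3% of them and the total H3K4me3 set 4.01%. Median reads per region were 6 and 67 in E14 replicates 1 and 2 and 35.5 and 33 in the clones, so replicate 1 rests on few reads there.

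Klhl20, a substrate adaptor of a cullin ubiquitin ligase, had the smallest adjusted p among the 10 largest rises. Its region (chromosome 1, 161130001 to 161131800), whose promoter sequence is shown above, had centred values of 1.15 and 1.39 in E14 cells and of -0.50 and -1.56 in the clones. Both E14 values were above both clones, and the log2 difference was 2.31 ± 0.39 (SE, n = 2 a group; limma adjusted p = 1.34e-05). H1f2, a linker histone gene (chromosome 13, 23738701 to 23741100), had 0.17 and 0.80 against -2.86 and -1.44. Its difference was 2.63 ± 0.65 (SE; limma adjusted p = 0.00823), on 6 and 16 reads in the clones, and IgG-IgG differed by 1.25 from 1 library a group.
Aasdh (chromosome 5, 76904551 to 76906800) had 0.15 and 0.49 in E14 cells against -4.35 and -1.26, with 2 and 17 reads in the clones. At Mei4, a gene of meiotic recombination, 0.35 and 0.39 stood against -0.63 and -5.02 with 21 reads and 1 read, and the clones differed from each other more than clone 57 from E14 cells. IgG-IgG differed by 2.94 at Mei4. Groups did not overlap at either gene, and the differences of 3.12 ± 0.92 and 3.20 ± 0.91 (SE) had limma adjusted p of 0.0373 and 0.0292.

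The rule for naming also took 6 regions of low depth or without a start site within reach. The largest fitted difference, 5.60, was at C920006O11Rik and Rn7sk, the gene of the 7SK small nuclear RNA (chromosome 9, 78175501 to 78176700). Centred values were 2.00 and 0.32 in E14 cells and -4.44 in each clone, from 48 and 174 reads against 1 and 1. The ratio of pooled reads, scaled by the library medians, was 31.8 with an exact 95% interval of 8.70 to 264 for counting error only, and reads of 7SK copies elsewhere may be placed here or lost. The region near C230035I16Rik had 31 and 252 reads in E14 cells and 0 and 8 in the clones. Regions of 300 bp near Elac2, Olfr1320 and C330011F03Rik had 7 or 8 reads in E14 replicate 1 and 0 or 1 in each clone. With no read in either clone, the ratio near Elac2 was at least 2.96, set against a floor of 3 reads over the group. The region near Stoml3 had 0.21 and 0.50 against -2.69 and -1.60.

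**Figure D2:**
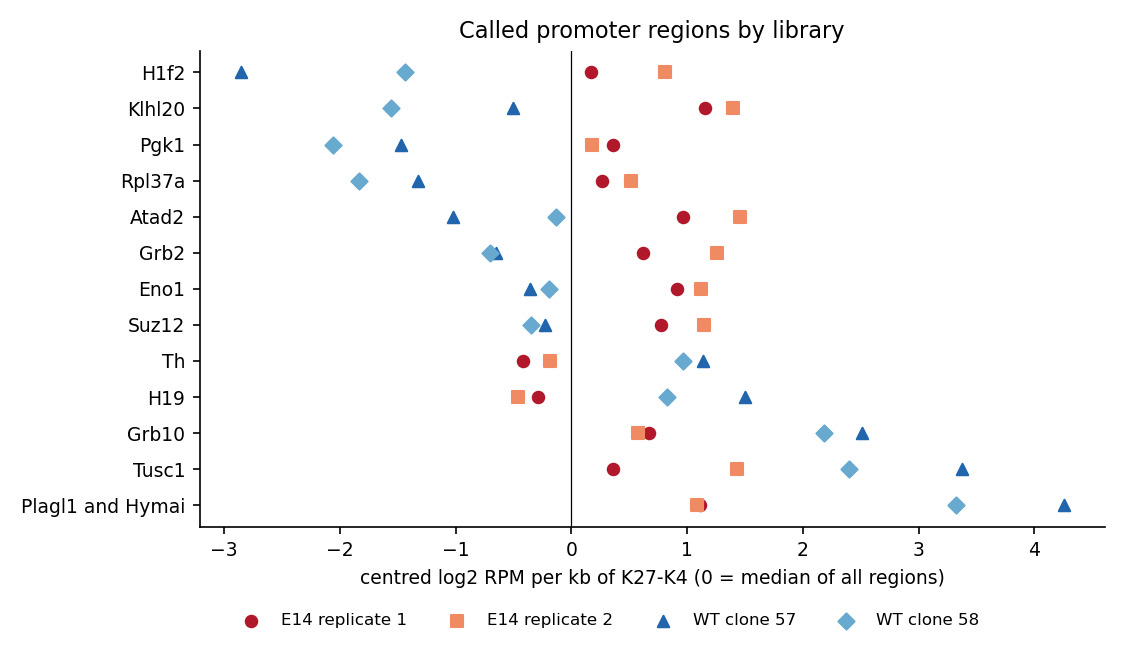
Centred log2 RPM per kb of K27-K4 (horizontal axis, 0 is the median of all regions) in each of the 4 libraries at called promoter regions, chosen for display after their values were seen. From Suz12 up to H1f2 both E14 libraries lie above both clones, and from Th down to Plagl1 and Hymai both lie below.

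Among the 10 largest falls, the one with the most reads was at an imprinted promoter. The region of Plagl1, an imprinted zinc finger gene, and of Hymai, an imprinted transcript that starts in it, lies on chromosome 10 from 13089601 to 13092150. It had centred values of 1.11 and 1.09 in E14 cells and of 4.25 and 3.32 in the clones, from 55, 629, 879 and 460 reads. The clones were above both E14 libraries, with a difference of -2.69 ± 0.64 (SE, n = 2 a group; limma adjusted p = 0.00553). Its differences in the other ChIPs were -2.52 in K4-K27, -1.76 in total H3K4me3, -1.53 in total H3K27me3 and 0.31 in IgG-IgG.
The other 9 of these falls lay away from start sites. At the region 8331 bp from Gm28548 shown above, values were -1.58 and -0.27 in E14 cells and 1.95 and 2.56 in the clones, from 1, 29, 21 and 32 reads. The difference was -3.18 ± 0.39 (SE; limma adjusted p = 7.05e-12), and E14 replicate 1 rests on 1 read. The region near Aass had -0.58 and -0.48 against 1.81 and 2.15, a difference of -2.51 ± 0.39 (SE; limma adjusted p = 2.32e-06). Regions near Trem3, Prdm11, Zswim6, Plcl2, Gm17455, Mir29a and Pja1 had differences from -2.65 to -2.39. Both clones lay above both E14 libraries in each, with between 1 and 9 reads in E14 replicate 1. With IgG-IgG subtracted, from 1 library a group, those near Trem3 and Gm17455 changed direction, to 0.80 and 0.33.

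The regions were then grouped by the E14 sets of the in-line totals. Where only total H3K4me3 was listed, 217 of 14062 regions were higher (1.54%) and 17 lower (0.121%), and the median difference was 0.44. Library medians in this class were 0.15 and 0.51 in E14 cells and -0.15 and -0.08 in the clones. Where only total H3K27me3 was listed, 1 of 3173 was higher and 175 were lower (5.52%), with medians of 0.07 and -0.35 in E14 cells and of 0.51 and 0.42 in the clones. The median difference was -0.53. Regions with neither total had 24 higher and 280 lower of 15563, and a median difference of -0.13.
At the 2721 regions with both totals, 2 were higher and 2 lower, although the median difference was -0.48. Their library medians were 1.17 and 1.76 in E14 replicates 1 and 2 and 2.19 and 1.64 in clones 57 and 58, so E14 replicate 2 lay between the clones. Under quantile and cyclic loess normalisation this median became -0.09 and -0.08, while that of the H3K4me3-only class was 0.37 and 0.33 and that of the H3K27me3-only class -0.46 and -0.41. With no centring the median of all regions rose to 0.82, and the class medians in the order given became 1.22, 0.26, 0.66 and 0.31.

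The difference varied with the level of a region mainly at the extremes. In the 3552 regions with the highest mean over the 4 libraries, the median difference was -0.61, with 1.39 and 2.08 in E14 cells and 2.61 and 1.97 in the clones, and 2 were called. In the 3552 with the lowest mean it was 0.97, with 10 called. In the 3552 regions next above the lowest it was 0.26. In the groups of this size between these and the highest it ran from -0.12 to 0.15 with no steady order. The set was called in E14 cells, so the positive sign at low means cannot be read apart from that choice. The libraries also differ in spread, as given above, and the part of this in the differences was not tested.

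**Figure D3:**
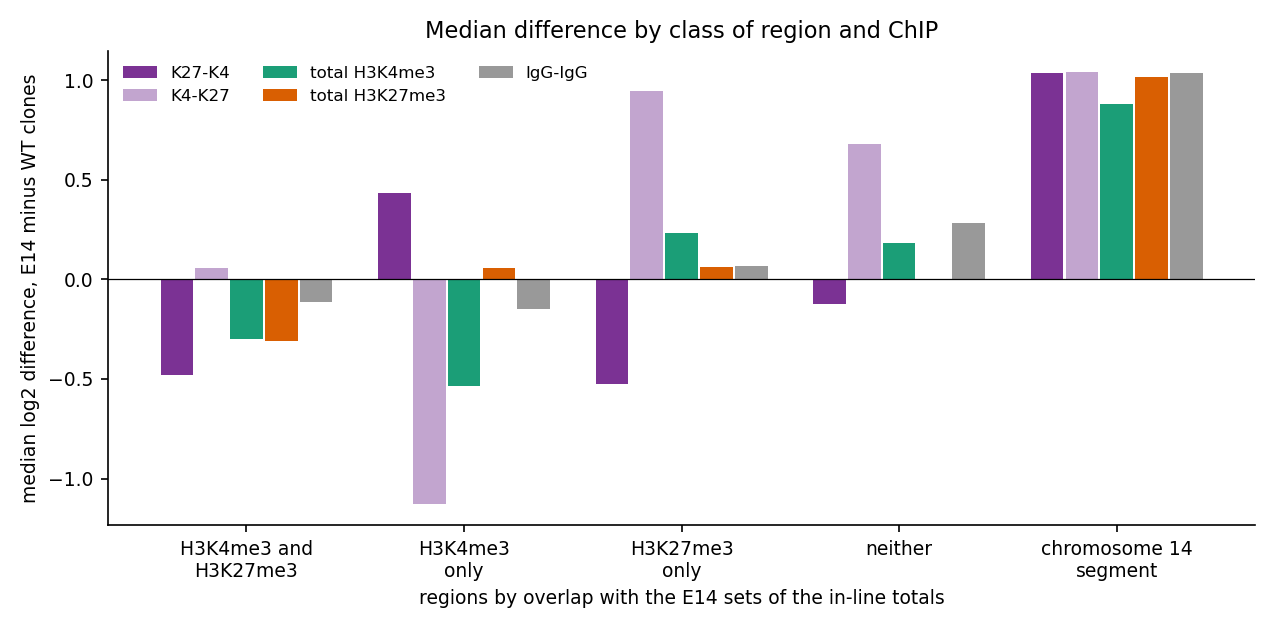
Median log2 difference of E14 minus WT clones (vertical axis) in each ChIP, for regions outside the chromosome 14 segment by their overlap with the E14 total sets and for the segment. K27-K4 is at 0.44 and K4-K27 at -1.13 where only total H3K4me3 is listed, and all ChIPs are between 0.88 and 1.04 in the segment. IgG-IgG is 1 library a group.

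The same regions were measured in the reverse orientation, K4-K27, and in the in-line totals, to see whether the difference was shared. Outside the segment, 47 regions (0.132%) were higher in E14 cells and 4291 (12.1%) lower in K4-K27, 180 (0.507%) and 239 (0.673%) in total H3K4me3, and 16 (0.045%) and 37 (0.104%) in total H3K27me3, all by limma. Quantile normalisation left 0 calls in any of these 3 ChIPs and cyclic loess left 1, a higher region in total H3K27me3. Without centring the higher and lower counts were 0 and 0 in K4-K27, 17 and 49 in total H3K4me3, and 129 and 854 in total H3K27me3. Without clone 57 the lower regions in K4-K27 were 741. Where only total H3K4me3 was listed, the median difference was -1.13 in K4-K27, -0.53 in total H3K4me3, 0.06 in total H3K27me3 and -0.15 in IgG-IgG, against 0.44 in K27-K4. Where only total H3K27me3 was listed, it was 0.95 in K4-K27, 0.23 and 0.06 in the totals and 0.07 in IgG-IgG, against -0.53 in K27-K4. With median centring, the reChIP orientations had medians of opposite sign in both classes. Without it, the K27-K4 median of the H3K27me3-only class was 0.26.
Of the 244 higher regions, 139 were called lower in K4-K27 and 2 higher, and their median difference there was -1.81. It was -0.80 in total H3K4me3, where 6.56% were positive, and 0.44 in total H3K27me3, where 85.2% were positive. The 474 lower regions had medians of 0.88 in K4-K27, 0.39 in total H3K4me3 and -0.22 in total H3K27me3. Median IgG-IgG differences were -0.39 for the higher and 0.14 for the lower regions, from 1 library a group.
The difference between ChIPs was tested as an interaction, which was not run under quantile or cyclic loess normalisation. In K4-K27 the SDs across regions were 1.14 and 0.82 in E14 cells and 1.85 and 1.49 in clones 57 and 58. The part of this spread in the interaction was not tested. The difference of E14 minus WT clones was higher in K27-K4 than in K4-K27 at 5188 of 35519 regions (14.6%) and lower at 642 (1.81%). In the H3K4me3-only class 4947 of 14062 were higher (35.2%), and in the H3K27me3-only class 0 were higher and 198 lower. With E14 replicate or clone as a paired block, 4037 were higher and 235 lower over all classes. Against total H3K4me3, K27-K4 was higher at 1972 regions (5.55%) and lower at 324 (0.912%), but at 0 and 0 regions with the replicate block. Against total H3K27me3, the ChIP of the same first antibody, 0 regions were higher and 2 lower (0.00563%). At an unadjusted p under 0.05, 833 were higher (2.35%) and 1728 lower (4.87%). Without centring 72 were called higher and 0 lower. Without clone 57 the interaction with K4-K27 was higher at 2405 regions. Without E14 replicate 1 it was lower at 20, and K27-K4 exceeded total H3K4me3 at 6.

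DKO clones 43 and 53 share batch C with the WT clones, and the comparison with them shares the E14 libraries. E14 minus DKO gave 1855 higher (5.22%) and 1515 lower (4.27%) of 35519 regions by limma. At the 244 higher regions the median difference was 0.87 with 79 called higher, and at the 474 lower regions it was -1.09 with 223 called lower. Klhl20 had a difference of 1.09 and the Plagl1 region had one of -1.64 against the DKO clones.

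Gene lists were read at promoter regions, with those in the chromosome 14 segment left in. The endoderm, BMP, FGF and both primitive endoderm lists had 2 such regions each. The ectoderm, germline and cyclin-dependent kinase inhibitor lists had 1 each. The lists of developmental transcription factors had negative medians, that of ribosomal protein genes a positive one, and few single promoters were called. Of 44 regions of ectoderm and neural transcription factors, 0 were called, 42 had a negative difference and the median was -0.75. Among the 3552 regions with the highest mean level, 92.8% had a negative difference and the median was -0.61. For mesoderm factors 0 of 39 were called, with a median of -0.71. For endoderm factors 0 of 22 were called, with a median of -0.65. The lowest member of these lists was Sox17, an endoderm factor, with 1.77 and 2.56 in E14 cells and 3.61 and 2.93 in the clones. It had a difference of -1.11 ± 0.70 (SE; limma adjusted p = 0.419). Sox1, a neural factor, had 1.62 and 2.29 against 3.31 and 2.63. The highest was Otx2, a forebrain factor in the chromosome 14 segment, with a difference of 0.75.
The 39 Hox genes share 8 regions, all with negative differences and 0 called, and a median of -0.69. Wnt ligands had a median of -0.64 over 19 regions, ligands of the BMP, GDF and Nodal pathways -0.54 over 23 and FGF ligands -0.44 over 20, with 0 called in each. Lefty2, an inhibitor of Nodal, was lowest among the second of these, with 0.11 and 0.58 against 1.73 and 1.38 and a limma adjusted p of 0.0929. Under quantile normalisation the medians of the lists from ectoderm factors to FGF ligands shrank to between -0.22 and -0.06, and under cyclic loess to between -0.19 and 0.00. Without centring the medians of these lists were positive, from 0.03 to 0.35, and below the 0.82 of all regions.
Other lists whose genes are largely silent in stem cells had medians of the same sign. Potassium channel genes had -0.55 over 80 regions with 1 lower (1.25%, against 1.33% of all regions and 0.249% of promoter regions), and receptors for glutamate, GABA and glycine -0.63 over 45. Axon guidance genes had -0.51 over 68 and germline genes -0.54 over 30. Under quantile normalisation these medians, in the order given, were -0.16, -0.12, -0.10 and -0.41. Under cyclic loess they were -0.11, -0.09, -0.03 and -0.36. Without centring they were positive, from 0.16 to 0.28, and below the 0.82 of all regions. The potassium channel region was near Kcne4, a regulatory subunit, with -0.58 and -0.95 against 0.06 and 1.30 and a difference of -1.45 ± 0.41 (SE; limma adjusted p = 0.0278). Of the 22 genes expressed after the first cleavage of the embryo that were listed, 0 had a region. Cyclin-dependent kinase inhibitors had a median of -0.34 over 8 regions, which became 0.12 under quantile normalisation and 0.08 under cyclic loess.

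Ribosomal protein genes, which are expressed in all cells, had the highest median. Of 82 regions 1 was called higher (1.22%), which is no more than the 1.47% of all promoter regions, 79 had a positive difference, and the median was 0.72, with library medians of 0.36 and 0.69 in E14 cells and of -0.30 and -0.10 in the clones. In K4-K27 their median was -2.22 and in total H3K4me3 -0.78. The called gene was Rpl37a (chromosome 1, 72710851 to 72714600), with 0.26 and 0.52 against -1.33 and -1.83 and a difference of 1.97 ± 0.54 (SE; limma adjusted p = 0.0238). Under quantile and cyclic loess normalisation the list's median was 0.65 and 0.68.
Polycomb components, the proteins that lay down and bind H3K27me3, had a median of 0.51 over 28 regions with 1 higher (3.57%, against 1.47% of all promoter regions) and 0 lower. Suz12, a core subunit of Polycomb repressive complex 2, was called (chromosome 11, 79992151 to 79994550). It had 0.77 and 1.14 in E14 cells and -0.23 and -0.35 in the clones. Both E14 libraries were above both clones, and the difference was 1.25 ± 0.38 (SE; limma adjusted p = 0.0458). Its K4-K27 difference was -2.50. Under quantile or cyclic loess normalisation, and with the DKO libraries in the fit, 0 regions of this list were called. The same held with GC content and width corrected and without the variance trend and robust estimation, while voom weights gave 2 higher. Ezh2, the catalytic subunit, had 0.31 and 0.97 against 0.12 and 0.26 with a limma adjusted p of 0.547. Bmi1, of Polycomb repressive complex 1, was lowest, with 1.82 and 2.29 against 3.14 and 2.49.
Pluripotency factors had a median of 0.39 over 20 regions with 0 called, 11 positive and 9 negative. Pou5f1, the gene of OCT4, had 0.02 and 0.52 against -0.53 and -0.10, and Sox2 0.60 and 0.91 against -0.52 and -0.28. Klf4 was lowest, with 1.21 and 1.99 against 3.05 and 2.56. Their limma adjusted p were 0.468, 0.0809 and 0.298. DNA methyltransferase and Tet genes had a median of 0.23 over 8 regions with 0 called.
The marker lists of cell types had 0 calls. The median was 0.62 for 10 of 11 stem cell markers, -0.55 for 8 primitive endoderm markers and -0.39 for the 4 of 8 fibroblast markers that had a region. The primitive endoderm median became 0.08 and 0.13 under quantile and cyclic loess normalisation. The longer lists had medians of -0.47 for 11 primitive endoderm regions, which became 0.14 and 0.23, and -0.66 for 7 fibroblast regions.

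**Figure D4:**
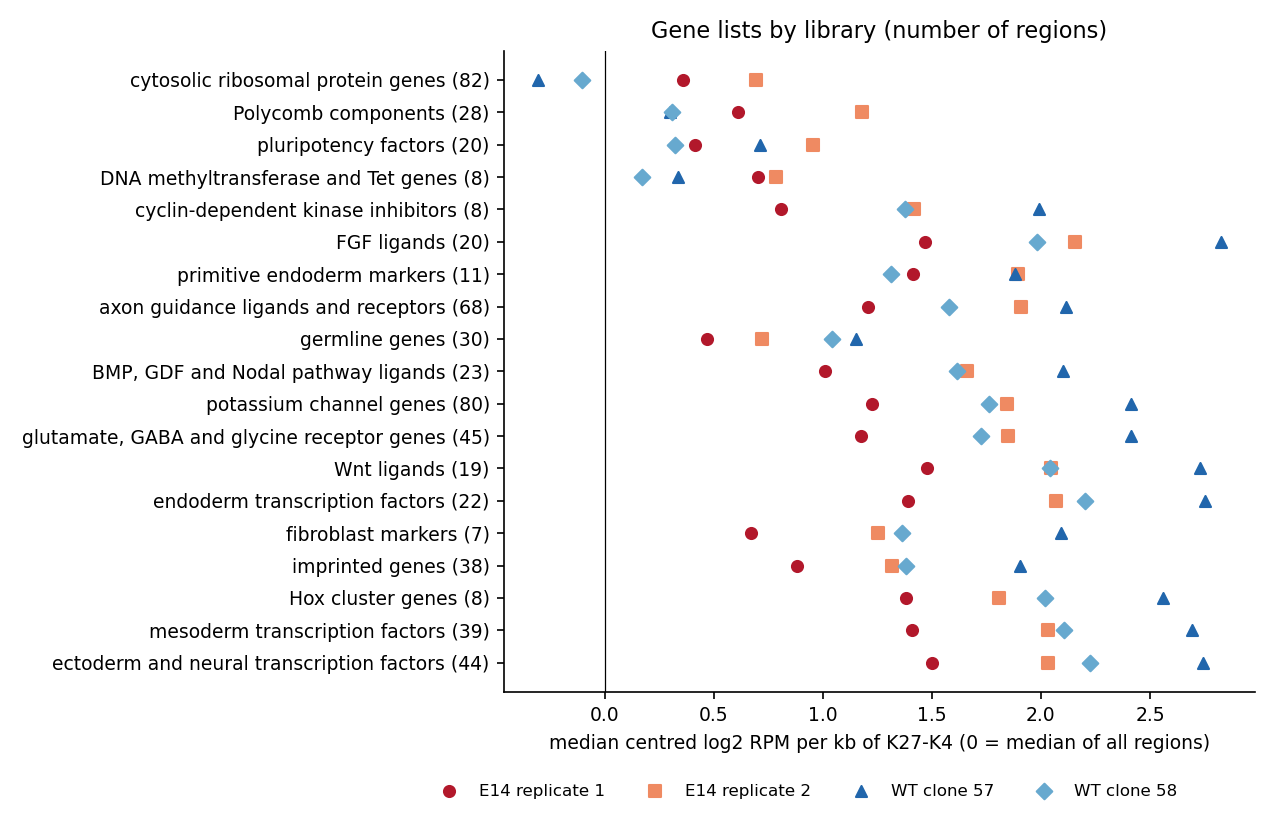
Median centred log2 RPM per kb of K27-K4 of each gene list (horizontal axis, 0 is the median of all regions) in the 4 libraries, with the number of promoter regions in brackets. In most lists with high values E14 replicate 1 is lowest and clone 57 highest, with E14 replicate 2 and clone 58 close together, while the ribosomal protein genes have both E14 libraries above both clones.

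Imprinted genes had a median of -0.69 over 38 regions, with 0 higher and 2 lower (5.26%), the regions of Plagl1 and H19. The lower share was 1.33% of all regions and 0.249% of promoter regions. The list's median became -0.20 under quantile and -0.23 under cyclic loess normalisation, with 4 lower in each. Without centring it was 0.10 with 0 called. H19 is a maternally expressed noncoding RNA (chromosome 7, 142574701 to 142581900). Its values were -0.29 and -0.46 in E14 cells and 1.5 and 0.83 in the clones. The groups did not overlap, and the difference was -1.54 ± 0.38 (SE; limma adjusted p = 0.00759). Igf2, its paternally expressed neighbour, had 1.33 and 2.00 against 2.82 and 2.41 with a limma adjusted p of 0.414.
After these values were seen, the 30 regions of distal chromosome 7 from Mrpl23 to Phlda2, an imprinted domain, were read together. Of these 12 were called lower and 0 higher, against 1.33% lower of all regions outside the segment, and 27 had a negative difference. Both E14 libraries lay below both clones at 22, against 22.6% of all. The median was -1.01, with -0.23 and -0.32 in E14 cells and 1.13 and 0.98 in the clones. A region 18750 bp wide, whose nearest start site is that of the potassium channel gene Kcnq1 at 74647 bp (chromosome 7, 143181901 to 143200650), had -0.41 and -0.80 against 1.62 and 1.59. Its difference was -2.21 ± 0.38 (SE; limma adjusted p = 1.63e-05). The region at the start of Kcnq1ot1, the noncoding RNA made from the paternal copy within Kcnq1, had 0.52 and 0.33 against 0.58 and 0.33. Cdkn1c, a maternally expressed growth inhibitor, had 1.38 and 2.08 against 3.09 and 2.39 at its promoter with a limma adjusted p of 0.398.
Over the 30 regions the median difference was -0.65 in total H3K27me3, 0.06 in total H3K4me3, 0.24 in K4-K27, 0.12 in IgG-IgG and -0.76 against the DKO clones. Also seen afterwards, a region 14550 bp wide at Grb10, an imprinted growth factor receptor adaptor, had 0.67 and 0.58 against 2.51 and 2.18, and a difference of -1.73 ± 0.49 (SE; limma adjusted p = 0.0282). Another window of lower calls was chromosome X from 99 to 100 Mb, near Efnb1 and Pja1, with 12 lower of 66 regions and a median of -0.77, and with 0.43 in IgG-IgG and 0.79 in K4-K27. Of 2371 windows of 1 Mb that hold a region, 371 hold a lower call and 18 hold 3 or more.

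Loci that the study had tested by qPCR gave no call. The bivalent loci Pou4f1, Tlx1 and Dlx3 had differences of -0.77, -0.83 and -0.34. Pou4f1 had 1.32 and 1.98 against 2.70 and 2.15, Tlx1 1.48 and 1.98 against 2.81 and 2.32, and Dlx3 1.34 and 2.05 against 2.30 and 1.77. At Dlx3 the groups overlapped. At the glycolytic gene Gapdh, which carries H3K4me3, 0.30 and 0.34 stood against -1.32 and -0.77, a difference of 1.37 ± 0.47 (SE; limma adjusted p = 0.0917). Gm6116 had 0.05 and -0.19 against 1.07 and 1.01 (limma adjusted p = 0.0887), and Meis2, a homeobox gene, 1.28 and 1.70 against 2.23 and 1.81. Mcmdc2 had a difference of -0.09. A region 377 bp from the start of Dppa2, which is intact in both groups, had 0.15 and -0.95 against -2.44 and -1.22 with a limma adjusted p of 0.381.

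In the chromosome 14 segment, nearly all regions had higher values in E14 cells. By limma 89 of 716 regions were called higher (12.4%) and 0 lower, with 276 (38.5%) and 3 (0.419%) at an unadjusted p under 0.05. The median difference was 1.04, or 2.05-fold, the quartiles were 0.55 and 1.66, and 93.9% of the regions were positive. Both E14 libraries lay above both clones at 67.5%. Median centred values were 0.00 and -0.07 in the E14 replicates and -0.90 and -0.98 in the clones. Hence the E14 libraries were at the level of other chromosomes and the clones below it.
Over all its regions, the shift was of similar size in each ChIP. The median difference in the segment was 1.04 in K4-K27, 0.88 in total H3K4me3, 1.02 in total H3K27me3, 1.03 in IgG-IgG and 1.04 in K27-K4 against the DKO clones. All 9 E14 libraries had medians between -0.10 and 0.07 over the whole segment, and all WT and DKO clone libraries between -1.08 and -0.70. At the 285 promoter regions of the segment the median difference was 1.10 in K27-K4, 0.09 in K4-K27 and 0.39 in total H3K4me3, against 0.20, -0.84 and -0.56 at promoter regions outside it. Where only total H3K4me3 was listed, it was 1.46 in K27-K4 and -0.18 in K4-K27, against 0.44 and -1.13 outside. With the IgG-IgG values subtracted, from 1 library a group, the median became 0.077, with 117 regions higher and 149 lower. The noise of these libraries does not enter the spread, so the counts do not serve as a test. Bins of 5 Mb had medians from 0.89 to 1.42 inside the segment. The bin before it had -0.59 over 11 regions and the bin after it -0.86 over 8.
The count of calls fell to 23 without E14 replicate 1 and to 1 without E14 replicate 2. It was 4 without the variance trend and robust estimation and 0 with GC content and width corrected, where the median difference was 1.03, and it rose to 150 without clone 57 and to 172 without clone 58.

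**Figure D5:**
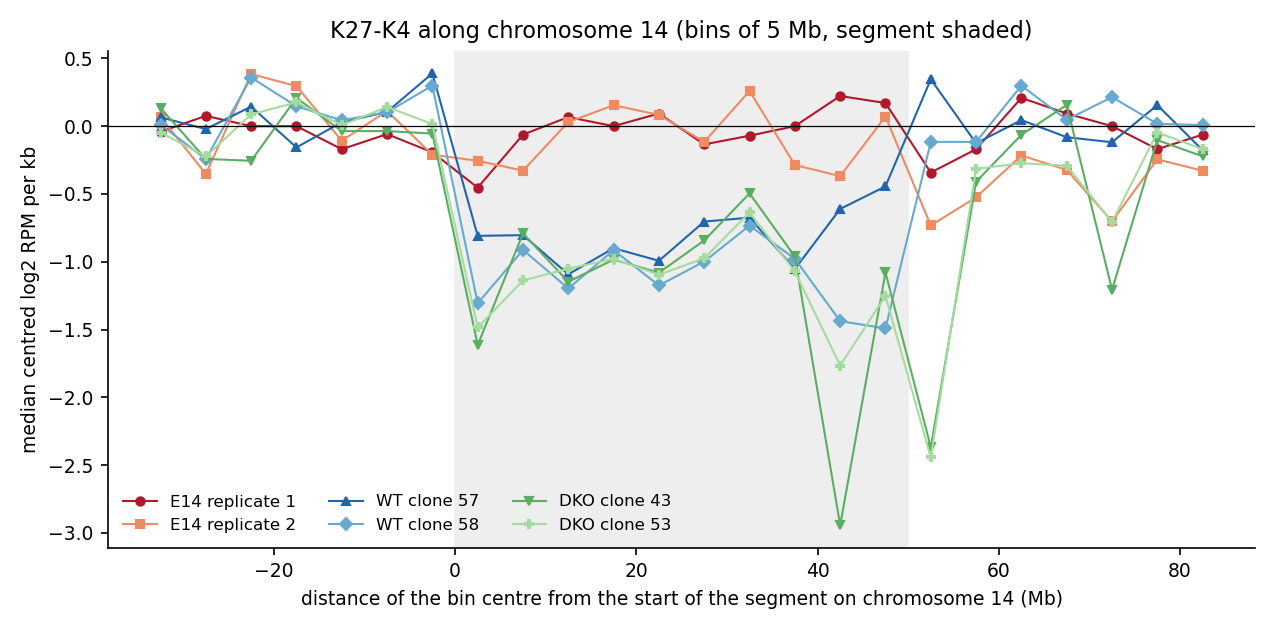
Median centred log2 RPM per kb of K27-K4 (vertical axis) in bins of 5 Mb along chromosome 14, by distance from the start of the segment in Mb (horizontal axis), for the E14, WT clone and DKO clone libraries, with bins of fewer than 5 regions left out. Within the shaded segment the 4 clone libraries lie below the E14 libraries in each bin, and outside it the E14 and WT clone medians lie close in most bins.

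Itm2b, an integral membrane protein gene, had the largest called rise in the segment (chromosome 14, 73384201 to 73385550), with the promoter shown above. It had 0.95 and 1.02 in E14 cells and -3.03 and -1.44 in the clones, on 3 and 9 reads in the clones, and a difference of 3.21 ± 0.56 (SE; limma adjusted p = 1.81e-05). IgG-IgG differed by 4.80 there, and with it subtracted the difference became -1.50. Naa16, of a protein acetyltransferase, had 0.64 and 0.80 against -2.80 and -1.36. Sall2, a zinc finger factor, had 0.76 and 0.71 against -1.59 and -1.76. Their differences of 2.80 ± 0.58 and 2.41 ± 0.50 (SE) had limma adjusted p of 7.49e-04 and 8.16e-04. Abhd4, a lipase gene, had -0.09 and 0.72 against -1.09 and -3.90, a difference of 2.81 with a limma adjusted p of 0.0339, and clone 58 alone was far below the other libraries. The most negative differences, near Mcpt-ps1, Stmn4 and Fgf9, were -1.10, -1.08 and -1.04 and were not called, with limma adjusted p of 0.200, 0.255 and 0.306. The 89 called regions of the segment had a start site within reach in 78.7% of cases and overlapped the total H3K4me3 set in 80.9%, against 34.3% and 42.7% of its uncalled regions. Their median differences were -0.36 in K4-K27, 0.26 in total H3K4me3 and 1.20 in total H3K27me3.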

How the data were processed

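The authors trimmed reads with Trim Galore 0.6.6, aligned them with BWA 0.7.13 to mm10 (GRCm38.p6) and marked duplicates with Picard 2.6.0, according to the submitters' processing notes. They quantified libraries in SeqMonk over listed regions, and the deposited values are log2 RPM per 1 kb of region, from reads of a mapping quality over 20 with duplicates kept. The authors called peaks with EPIC2 in each replicate against IgG-IgG and intersected the replicates. The widths in the deposited E14 list are all multiples of 150 bp, and which step made that list is not given in the sources used here. The submitters' processing notes also name MACS2, with no role given. Of values between 1 and 500 reads, 100% lay within 0.05 of a whole read, with 0.9 entered for 0 reads, which gave the depths. Columns of no sample of this series, 8 in all, were not used.

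Each library was centred on its median over all 36235 regions. Groups were compared with limma 3.58.1 in R 4.3.3 (lmFit, then eBayes with variance trend and robust estimation, checked on simulated data), and tables were made in Python 3.11.15 with numpy 2.4.6, pandas 2.3.3 and matplotlib 3.10.9. The authors tested DKO against WT clones on reads, and the log2 values made limma the test here. A region was called at an absolute log2 difference above 1 and a Benjamini-Hochberg adjusted p under 0.05. A region counted as a promoter where it came within 1.5 kb of any of 31647 start sites from RefSeq, and overlap meant at least 1 bp. With 2 libraries a group, an exact two-sided permutation test of a single region cannot go below 0.333, so only the fit across all regions was used. The 4 libraries are 2 cultures and 2 clones, and batch could not be fitted beside cell line.

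Named regions were the 10 largest called rises and falls outside the segment, the 5 largest in each direction inside it (no fall was called there, and only 3 had an unadjusted p under 0.05), the highest and lowest member of each of 20 gene lists and 3 marker lists, loci tested by qPCR and pluripotency factors. Others are said to have been chosen after their values were seen. The regions, lists and rule were chosen with earlier results of these data known. Libraries of a replicate number come from the same E14 culture and batch, or from the same clone, and were taken as pairs in an alternative. Their deviations from group means correlated with those of K27-K4 at 0.221 (K4-K27), 0.109 (total H3K4me3) and -0.0858 (total H3K27me3) in E14 cells, and at 0.0233, 0.0564 and 0.117 in the clones. Alternatives covered scaling, IgG-IgG subtraction, variance model, regions tested, thresholds, GC content and width, the pairing and each library left out. Intervals from reads cover counting error only.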

Additional observations from a re-analysis of the deposited data

Results flagged for a closer look

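The difference between E14 cells and WT clones was not the same in each ChIP by an interaction test with limma. The test covered the 35519 regions outside the chromosome 14 segment and was not run under quantile or cyclic loess normalisation. These normalisations left 0 calls in K4-K27 itself. The difference was higher in K27-K4 than in K4-K27 at 5188 regions and lower at 642. Without centring these counts were 6530 and 81, and with the paired replicate block 4037 and 235. The difference was higher in K27-K4 than in total H3K4me3 at 1972 regions and lower at 324, or at 3692 and 17 without centring. Against total H3K27me3 it was lower at 2 regions and higher at 0. The calls against either total were lost with the paired replicate block.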

How the results depend on the processing

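Outside the segment, the 244 higher and 474 lower regions became 7 and 0 without centring, 102 and 98 under quantile and 75 and 145 under cyclic loess normalisation. IgG-IgG subtraction gave 5505 and 5964, and 16 of the earlier calls then had the opposite direction. The same IgG-IgG library was subtracted from both libraries of a group. Its noise moves the differences without adding to the spread, so these counts do not serve as a test. The counts were 23 and 0 without the variance trend and robust estimation, 392 and 755 with voom weights on recovered reads, 32 and 284 for regions also listed in the WT clone set, 31 and 53 at a minimum difference of 2, and 0 and 0 with GC content and width corrected. Leaving out 1 library gave 12 to 1499 higher, lowest without E14 replicate 2, and 167 to 640 lower, in both cases highest without clone 58. In the segment, 89 higher became 13, 32, 38, 4 and 148 in the order of no centring, quantile, loess, no trend or robust estimation, and voom, then 53 with the DKO libraries in the fit, 26 in the WT clone set, 23 at the larger minimum and 0 with GC content and width corrected, and 1 to 172 with 1 library left out. Lower regions there were 149 under IgG-IgG subtraction and 0 with any library left out. Its median of 1.04 was 1.82 without centring, 0.88 under quantile, 0.68 under loess, 0.077 under IgG-IgG subtraction, 0.97 with voom, 0.85 without the lowest quartile of values, 0.70 in the WT clone set, 1.03 with GC content and width corrected, 0.87 with bounds of 30 to 100 Mb and 0.88 to 1.17 with 1 library left out. The cause of these shifts was not tested. A filter at a mean of 20 reads, chosen after seeing the data, gave 300 and 470.

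In K4-K27, higher and lower counts were 0 and 0 without centring, under quantile and under loess, and 0 to 3055 and 741 to 7067 with 1 library left out. In total H3K4me3 they were 17 and 49 without centring, 0 and 0 under quantile and loess, and 4 to 1384 and 7 to 1500. In total H3K27me3 they were 129 and 854 without centring, 0 and 0 under quantile, 1 and 0 under loess, and 35 to 198 and 0 to 569. With the paired replicate block, the interaction of K27-K4 with K4-K27 had 4037 higher and 235 lower regions, and those with total H3K4me3 and total H3K27me3 had 0 and 0. Without centring the interaction with K4-K27 had 81 lower, that with total H3K4me3 had 3692 and 17, and that with total H3K27me3 had 72 and 0. With 1 library left out, the interactions had 2405 to 6071 higher and 20 to 3568 lower, 6 to 3894 and 3 to 1680, and 0 to 382 and 0 to 419. The higher counts against total H3K4me3 and the lower counts against K4-K27 were lowest without E14 replicate 1 and highest without clone 58. Among named regions, those near Trem3 and Gm17455, at Itm2b and near 1700001F09Rik changed direction under IgG-IgG subtraction, to 0.80, 0.33, -1.50 and -0.48. Each IgG-IgG group is 1 library.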
